A study of Mus musculus with 13 samples.

Results

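The genes described here are 10 transcription factors of limb and mesenchyme position outside the Hox clusters, among 43629 genes counted: Pitx1, Lhx9, Sim2, Tbx4, Tbx5, Tbx15, Prrx1, Twist1, Hand2 and Meis1. They were taken as a named list that was drawn up with earlier results from all 13 libraries known. The list names no comparison and no threshold, so the total RNA levels below are given as a description, with no test.

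RNA was sequenced from mouse embryonic fibroblasts (MEFs), connective tissue cells cultured from embryos, here of embryonic day E12.5. Total RNA was measured in 4 libraries, 1 each for the wild types labelled IMP1 WT and IMP2 WT and the knockouts labelled IMP1 KO and IMP2 KO, where the KO cells had IMP1 (gene Igf2bp1) or IMP2 (gene Igf2bp2) deleted and the WT cells were wild type. Immunoprecipitation (IP) libraries came from pull-downs with anti-IMP1, anti-IMP2 or control IgG, 3 libraries each. IMP1 and IMP2 are RNA-binding proteins, and the study asked which RNAs each of them holds. The labels state no genotype for the immunoprecipitated cells, and no mouse strain, sex, embryo part or number of embryos or clones behind a culture. Whether the part of the embryo was the same in all libraries is thus unknown, and for positional factors a difference in embryo part and a difference between genotypes, or between IP and total RNA, cannot be told apart. Whether the 3 IP libraries of a group are separate cultures is likewise unstated, so p-values measure only the spread between these libraries, which may be technical.

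During development these factors mark where a mesenchymal cell lies in the body. Tbx5 acts in the forelimb bud, Pitx1 and Tbx4 in the hindlimb bud, Hand2 in the posterior limb bud upstream of Shh, and Lhx9, a LIM-homeodomain factor, in limb outgrowth and the gonad. Prrx1 (a homeobox gene of limb and facial mesenchyme), Twist1 (a basic helix-loop-helix factor) and Meis1 (a PBX and Hox cofactor of the proximal limb) are expressed more broadly, Tbx15 patterns dermis and skeleton, and Sim2 is a basic helix-loop-helix PAS factor that pairs with ARNT. Fibroblasts are known to keep part of such a positional program in culture.

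By the RefSeq annotation of GRCm38.p6 the 10 genes lie on 8 chromosomes. Pitx1 spans chr13:55825044-55836190, Lhx9 chr1:138825186-138848839, Sim2 chr16:94085104-94127032, Tbx4 chr11:85886367-85916097 and Tbx5 chr5:119796514-119885220. Tbx15 spans chr3:99240348-99354260, Prrx1 chr1:163245119-163315145, Twist1 chr12:33957671-33959831, Hand2 chr8:57320983-57324517 and Meis1 chr11:18880428-19019651. Prrx1 overlaps the long non-coding RNA gene Gm20471 (12 to 24 counts in the IgG libraries and at most 1 elsewhere) and Meis1 overlaps Gm16141 (at most 5 counts in any library). Sim2, Tbx5, Tbx15 and Prrx1 also overlap RefSeq non-coding genes that were not analysed here. The strand setting of the counting is not given, and reads from overlapping genes cannot be told apart. Values are per gene over all its exons, and levels are compared between libraries and not between genes, since no exon length was used.

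The RefSeq promoter table (build GRCm38.p6, 250 bases before to 50 after a start site) held 6 of the 10 genes: Lhx9, Tbx4, Prrx1, Twist1, Hand2 and Meis1. Pitx1, Sim2, Tbx5 and Tbx15 had no entry. Shown here are the promoters of 3 genes with 0 or 1 counts in IMP1 KO (Tbx4, Hand2, Lhx9) and of the 2 genes with their highest level there (Prrx1, Meis1). Positions are chr11:85896515-85896814 on the plus strand for Tbx4, chr8:57320733-57321032 on the plus strand for Hand2, chr1:138842395-138842694 on the minus strand for Lhx9, chr1:163313601-163313900 on the minus strand for Prrx1 and chr11:19018920-19019219 on the minus strand for Meis1. Capitals mark a searched motif on either strand. The windows of Tbx4, Lhx9, Prrx1 and Meis1 lie inside the span of their genes.
Tbx4: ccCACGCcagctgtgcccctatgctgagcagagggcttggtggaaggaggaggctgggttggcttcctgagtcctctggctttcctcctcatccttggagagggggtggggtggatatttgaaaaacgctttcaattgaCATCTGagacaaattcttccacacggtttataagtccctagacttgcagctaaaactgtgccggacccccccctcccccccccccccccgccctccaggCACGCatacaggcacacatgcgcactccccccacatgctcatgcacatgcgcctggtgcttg
Hand2: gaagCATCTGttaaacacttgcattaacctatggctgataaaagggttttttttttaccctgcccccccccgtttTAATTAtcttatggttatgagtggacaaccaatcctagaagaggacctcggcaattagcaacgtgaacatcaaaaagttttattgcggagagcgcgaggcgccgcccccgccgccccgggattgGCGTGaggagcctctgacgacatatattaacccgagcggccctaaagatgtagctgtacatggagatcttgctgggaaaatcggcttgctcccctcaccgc
Lhx9: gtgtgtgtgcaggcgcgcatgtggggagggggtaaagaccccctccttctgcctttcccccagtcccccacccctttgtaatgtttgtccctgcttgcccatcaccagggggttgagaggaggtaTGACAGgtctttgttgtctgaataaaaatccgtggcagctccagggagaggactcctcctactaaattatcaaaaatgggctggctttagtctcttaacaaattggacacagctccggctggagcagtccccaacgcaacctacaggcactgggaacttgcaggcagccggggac
Prrx1: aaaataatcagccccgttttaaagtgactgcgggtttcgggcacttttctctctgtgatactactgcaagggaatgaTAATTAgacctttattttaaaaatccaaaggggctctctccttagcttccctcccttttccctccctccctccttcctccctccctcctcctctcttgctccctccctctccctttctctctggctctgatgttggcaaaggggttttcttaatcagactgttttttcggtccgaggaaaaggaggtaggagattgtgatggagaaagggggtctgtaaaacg
Meis1: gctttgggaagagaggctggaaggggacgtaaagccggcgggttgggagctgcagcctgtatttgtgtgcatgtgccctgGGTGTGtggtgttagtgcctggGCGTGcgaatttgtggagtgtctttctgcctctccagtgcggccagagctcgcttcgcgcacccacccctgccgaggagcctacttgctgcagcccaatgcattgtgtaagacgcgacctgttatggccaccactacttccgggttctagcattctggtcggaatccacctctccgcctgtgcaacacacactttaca

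Searched on both strands, GCGTG (the core that SIM and ARNT factors bind) was in the windows of Tbx4, Hand2 and Meis1, and in 32.4% of 32851 RefSeq promoters. CAGATG (an E-box of TWIST and HAND factors) was in those of Tbx4 and Hand2, against 17.2% of all promoters. TAATTA (LIM and paired homeodomain factors) was in those of Hand2 and Prrx1, against 5.29%. TGACAG (MEIS) was in that of Lhx9, against 19.2%, and GGTGTG (T-box) in that of Meis1, against 19.0%. TAATCC (PITX) and CATATG (a further E-box) were in none of the 6 windows, and in 7.06% and 3.91% of all promoters. No searched motif contains another, and a match describes letters in the window only. The 2 windows richest in CpG were those of Hand2 and Twist1, with observed over expected ratios of 0.897 and 0.827. The other 4 lay between 0.261 and 0.589, beside a median of 0.384 over all promoters.

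Each library held 11430002 to 21756430 counts in genes. Levels are given as CPM, counts scaled to a library's total of gene counts, and a count of 0 allows up to 3 counts, or 0.138 to 0.262 CPM depending on the library. Igf2bp1 was 32.3 CPM in IMP1 WT and 3.33 CPM in IMP1 KO, and Igf2bp2 was 146 CPM in IMP2 WT and 27.8 CPM in IMP2 KO. All 10 fibroblast markers (such as Col1a1 and Pdgfra) had at least 1 CPM in each total RNA library, and 9 of 10 did in each IP library, where Lum was below 1 CPM. Above that level some of them differed widely. In IMP1 WT, IMP2 WT, IMP1 KO and IMP2 KO, Col3a1 was 2550, 4408, 809 and 4908 CPM. Thy1 was 557, 681, 913 and 91.5 CPM in that order, while Vim was at 4941 to 5748 CPM. Col3a1 was 42.6 to 91.1 CPM in the IP libraries. Summed cartilage markers (7 genes) were 172 to 399 CPM in the other total RNA libraries and 11473 CPM in IMP2 KO, and 4.16 to 9.54 CPM in the IP libraries. Summed macrophage and blood markers (9 genes) were 11.6 to 29.6 CPM in the other total RNA libraries and 274 CPM in IMP2 KO, with Hbb-bt and Hba-a1 at 0. The Y-linked genes Ddx3y, Eif2s3y, Uty and Kdm5d were at 9.01 to 112 CPM in both WT libraries, at 0 to 3 counts in both KO libraries and at 0 to 2 counts in the IP libraries. Xist, the RNA of the inactive X chromosome, was 0 to 10.2 CPM in total RNA, 710.1 to 752 CPM in the IgG libraries, 104 to 110.4 CPM in the IMP1 IP and 48.7 to 66.8 CPM in the IMP2 IP. Summed skeletal muscle markers (8 genes, Myf5 and Pax7 at 0 in all total RNA) were 23.2 and 20.8 CPM in IMP1 WT and IMP2 WT, 2.01 in IMP1 KO and 0.724 in IMP2 KO, and 0.734 to 1.91 in the IP libraries, with Des at 22.8, 20.3, 1.84 and 0.483 CPM in total RNA. In the same order of total RNA libraries the summed ectoderm and epithelium markers (9 genes, Krt14 at 0) were 41.6, 16.1, 2.1 and 27.3 CPM, neural and Schwann markers (8 genes) 75.0, 94.7, 64.2 and 17.5 CPM, and mesothelium markers (5 genes) 31.8, 16.9, 17.7 and 4.22 CPM. In the IP libraries these 3 sums were 1.15 to 3.63, 6.87 to 15.3 and 78.6 to 97.1 CPM. Nearly all of the mesothelium sum there was Msln, at 78.4 to 96.9 CPM. Upk3b, Wt1, Krt7 and Lrrn4 were at most 0.412 CPM in the IP libraries. Some single genes of these lists were lower in both knockouts than in both WT libraries: Krt19 at 38.8, 12.2, 1.84 and 0.724 CPM, Stmn2 at 36.2, 51.4, 14.6 and 0.905 CPM and Msln at 23.6, 13.6, 0.0875 and 0.664 CPM. Other genes of the same lists were not. Trp63 was 1.42, 3.48, 0 and 23.9 CPM, Tubb3 32.5, 38.4, 47.7 and 8.02 CPM and Upk3b 2.58, 0.406, 11.5 and 2.66 CPM.

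In total RNA, 7 of the 10 factors were at least 2-fold lower in IMP1 KO than in IMP1 WT and 2 were at least 2-fold higher. Over the 14275 genes with at least 1 CPM in 1 of the 4 libraries, 12.1% were lower and 6.80% higher by that much. In IMP2 KO against IMP2 WT, 6 factors were lower and 1 higher, over a background of 9.76% lower and 11.0% higher. Between the WT libraries no factor was lower and 1 was higher in IMP1 WT, over a background of 1.84% and 1.46% (3.29% in all). Pitx1, Lhx9, Tbx4, Tbx5 and Hand2 were at least 2-fold lower in both knockouts, as were 4.27% of genes, and Sim2 and Prrx1 differed at least 2-fold in opposite directions in the knockouts, as did 3.72%. The median log2 ratio of the 10 factors was -6.24 in IMP1 KO (-5.43 with genes at 0 set to the 3-count bound) and -2.51 in IMP2 KO, beside medians of -0.05 and 0.00 over all genes. Because the factors were listed with these values known, nothing is read from these counts. Each genotype is 1 library, so no difference has a replicate check, and in bulk RNA fewer cells of a type and less RNA per cell cannot be told apart.

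**Figure D1:**
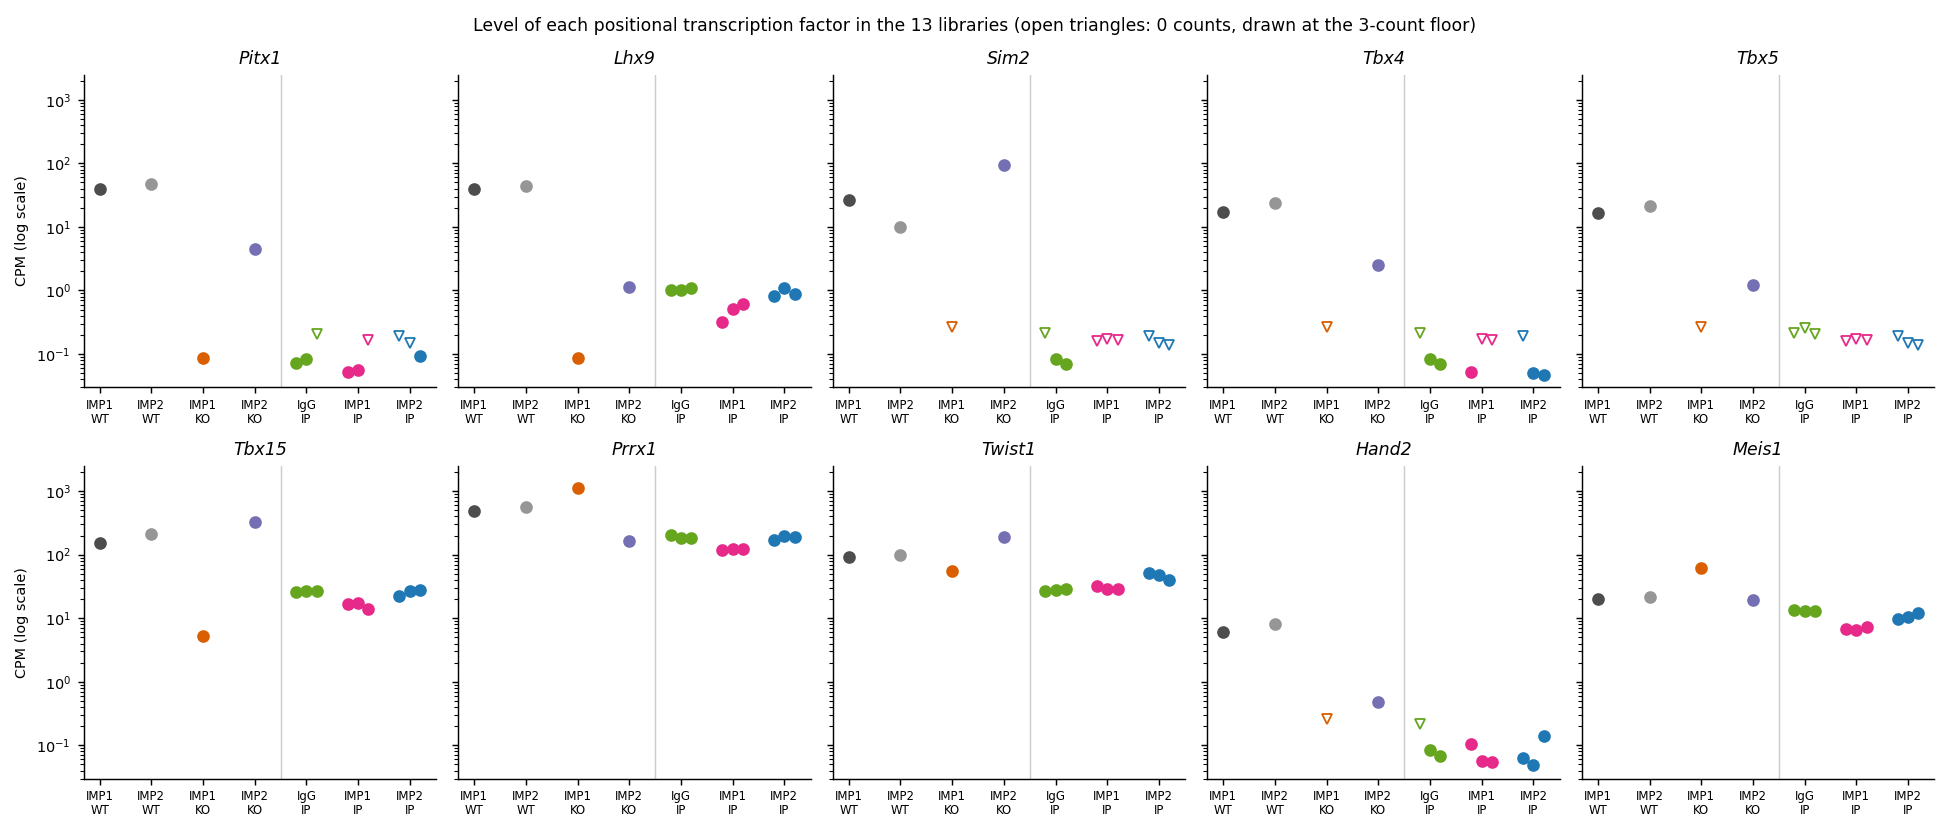
Level of each of the 10 transcription factors in the 13 libraries, in CPM on a log axis, 1 point per library (4 total RNA libraries on the left of each panel, 9 IP libraries on the right). Open triangles are libraries with 0 counts, drawn at the 3-count floor, which lies above the level of 1 count. Pitx1, Sim2, Tbx4, Tbx5 and Hand2 are at 5.96 CPM or more in both WT libraries and at 3 counts or fewer in all 9 IP libraries.

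The hindlimb factors were high in both WT libraries and low in both knockouts. Pitx1, a paired-type homeodomain factor that specifies hindlimb identity, was 39.1 CPM in IMP1 WT, 47.2 in IMP2 WT, 0.0875 in IMP1 KO (1 count) and 4.46 in IMP2 KO (74 counts). Its CPM was 447-fold lower in IMP1 KO than in IMP1 WT (exact 95% counting interval 79.9 to 17683) and 10.6-fold lower in IMP2 KO than in IMP2 WT (8.33 to 13.6). Tbx4, the T-box factor of the hindlimb bud, had 17.0 CPM in IMP1 WT, 23.6 in IMP2 WT, 0 counts in IMP1 KO and 2.47 CPM in IMP2 KO. Its level was at least 64.8-fold lower in IMP1 KO, with 3 counts per library as the floor, and 9.53-fold lower in IMP2 KO (6.90 to 13.5). For both genes the order was IMP2 WT, IMP1 WT, IMP2 KO and IMP1 KO, with a WT to WT difference of 1.21-fold (1.08 to 1.35) for Pitx1 and 1.39-fold (1.18 to 1.63) for Tbx4.

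The forelimb factor Tbx5 had the same order of libraries. Its levels were 16.6 CPM in IMP1 WT, 21.0 in IMP2 WT and 1.21 in IMP2 KO, with 0 counts in IMP1 KO. That is at least 63.3-fold lower in IMP1 KO and 17.4-fold lower in IMP2 KO (11.1 to 28.8). Forelimb and hindlimb factors were thus both present in each WT library, and neither set was above 5 CPM in either knockout.

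Hand2 and Lhx9 showed the same separation of WT from KO. Hand2, which marks posterior limb mesenchyme, was 5.96 CPM in IMP1 WT, 8.01 in IMP2 WT, 0 counts in IMP1 KO and 0.483 CPM (8 counts) in IMP2 KO. It was at least 22.7-fold lower in IMP1 KO and 16.6-fold lower in IMP2 KO (8.19 to 39.2). Lhx9 was 38.9 CPM in IMP1 WT, 44.4 in IMP2 WT, 0.0875 in IMP1 KO (1 count) and 1.15 in IMP2 KO (19 counts). Its level was 445-fold lower in IMP1 KO (79.5 to 17591) and 38.7-fold lower in IMP2 KO (24.6 to 64.7). With 1 count or none in IMP1 KO, the upper end of these ratios is set by depth. The 4 Y-linked genes, Des (most of the summed muscle markers), Krt19, Stmn2 and Msln also separated both WT from both KO libraries. Other markers, such as Trp63 and Tubb3, did not. The part of any of these genes in the values of Hand2, Lhx9, Pitx1, Tbx4 and Tbx5 was not tested.

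Sim2 and Tbx15 differed between the knockouts. Sim2 had 26.3 CPM in IMP1 WT, 10.0 in IMP2 WT, 0 counts in IMP1 KO and 93.9 CPM (1556 counts) in IMP2 KO. It was at least 100-fold lower in IMP1 KO and 9.35-fold higher in IMP2 KO (7.98 to 11.0), each against its own WT. Sim2 was also the factor that differed most between the WT libraries, 2.62-fold higher in IMP1 WT (2.18 to 3.15). Set against IMP1 WT in place of IMP2 WT, the log2 ratio of Sim2 in IMP2 KO was 1.85 in place of 3.19, and in IMP1 KO against IMP2 WT it was -6.28 in place of -7.63. Tbx15 was 153 CPM in IMP1 WT, 215 in IMP2 WT, 5.25 in IMP1 KO (60 counts) and 328 in IMP2 KO. Its level was 29.2-fold lower in IMP1 KO (22.6 to 38.4) and 1.52-fold higher in IMP2 KO (1.46 to 1.59). The library with the highest Sim2 and Tbx15, IMP2 KO, is also the one with 11473 CPM of cartilage markers and 274 CPM of macrophage and blood markers, whose part in these values was not tested.

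Prrx1, Twist1 and Meis1 were present in every library, and none of them followed the limb bud factors. Prrx1 was 488 CPM in IMP1 WT, 569 in IMP2 WT, 1128 in IMP1 KO and 162 in IMP2 KO. It was 2.31-fold higher in IMP1 KO (2.25 to 2.38) and 3.51-fold lower in IMP2 KO (3.36 to 3.67). Against IMP2 WT the log2 ratio of Prrx1 in IMP1 KO was 0.91, below the 2-fold line. Twist1, which regulates mesenchymal identity and cranial skeleton, was in turn lowest in IMP1 KO and highest in IMP2 KO, with 93.1 CPM in IMP1 WT, 97.8 in IMP2 WT, 54.8 in IMP1 KO and 190.5 in IMP2 KO. Its level was 1.70-fold lower in IMP1 KO (1.55 to 1.87) and 1.95-fold higher in IMP2 KO (1.84 to 2.07), both within 2-fold. Meis1 stood apart in 1 library: 19.9 CPM in IMP1 WT, 21.3 in IMP2 WT, 61.9 in IMP1 KO and 19.3 in IMP2 KO. It was 3.11-fold higher in IMP1 KO (2.71 to 3.57), while the other 3 libraries could not be ordered, with intervals of 0.948 to 1.29 (IMP2 KO against IMP2 WT) and 0.912 to 1.248 (WT against WT) that include a ratio of 1. For Twist1 the WT libraries likewise were not distinguishable by counting error (interval 0.978 to 1.13).

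**Figure D2:**
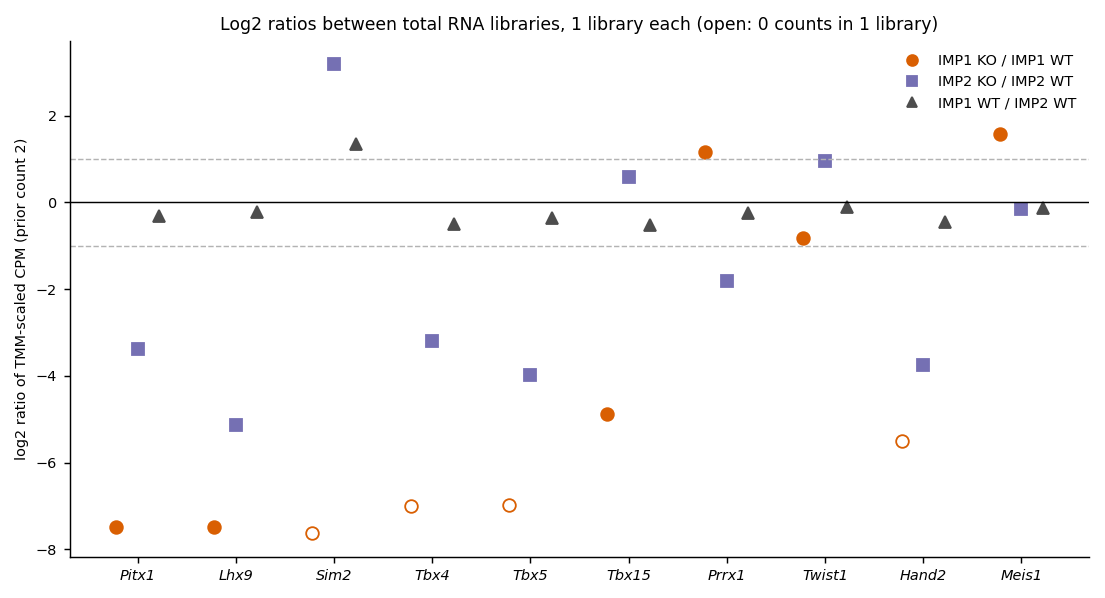
Log2 ratio of TMM-scaled CPM (prior count 2) for each factor in 3 comparisons of total RNA libraries, 1 library each. Dashed lines mark 2-fold, and open symbols have 0 counts in the KO library, so that their position depends on the prior count. In IMP1 KO 7 factors lie below the lower line, in IMP2 KO 6, and between the WT libraries none.

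Setting the knockouts against each other, 2 of the 10 factors were at least 2-fold higher in IMP1 KO (Prrx1 6.97-fold, Meis1 3.21-fold) and 8 were lower, over a background of 9.64% and 15.1% of genes. Sim2 was at least 358-fold lower in IMP1 KO than in IMP2 KO, and Tbx15 62.4-fold lower (48.4 to 81.9). Twist1 was 3.48-fold lower (3.19 to 3.80). Hand2 is the weakest of the 8, since 0 counts against 8 bound its ratio at only 1.84-fold.

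Among 10562 genes with at least 5 CPM in both WT libraries, which include all 10 factors, 57 (0.540%) had at most 1 count in IMP1 KO, and 6 of these were Pitx1, Lhx9, Sim2, Tbx4, Tbx5 and Hand2. In the IP libraries, 263 genes (2.49%) had at most 3 counts in each of the 9, among them Pitx1, Sim2, Tbx4, Tbx5 and Hand2. Both rules held for 19 genes (0.180%), 5 of them these factors. The rules were set after the values were seen, and the counts are a description.

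The same 5 factors were thus nearly absent from the pull-downs, IgG included. Tbx5 had 0 counts in all 9 IP libraries. Sim2 had 2 counts over the 3 IgG libraries and 0 in the other 6. Pitx1 had 2 counts in each IP group, Tbx4 2, 1 and 2 counts in the IgG, IMP1 and IMP2 groups, and Hand2 2, 4 and 5. Pooled over the IgG libraries, the CPM of Pitx1 was 876-fold lower than over the 2 WT total RNA libraries (242 to 7238), and that of Tbx5 at least 254-fold lower, with 3 counts over the group as the floor. With 0 to 3 counts per library a pull-down difference in these 5 genes was not detectable, and they entered no test.

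Of all 10 factors, 9 were at least 2-fold lower in the IgG libraries than in WT total RNA on the scale of TMM-scaled CPM, 10 in the IMP1 IP and 8 in the IMP2 IP, over backgrounds of 37.3%, 38.5% and 29.4% of 13461 genes. Lhx9 was the lowest of the 5 that remained detectable relative to total RNA, 40.2-fold lower in IgG (29.6 to 56.0), 88.1-fold lower in the IMP1 IP (59.9 to 135) and 44.7-fold lower in the IMP2 IP (34.1 to 59.8). Meis1 was nearest to its total RNA level, 1.57-fold lower in IgG (1.40 to 1.77), 3.02-fold in the IMP1 IP (2.66 to 3.44) and 1.92-fold in the IMP2 IP (1.72 to 2.14). Tbx15 was 7.0-fold, 11.7-fold and 7.15-fold lower in the same 3 groups, Prrx1 2.79-fold, 4.35-fold and 2.85-fold, and Twist1 3.41-fold, 3.20-fold and 2.1-fold. These ratios are of pooled counts and their intervals cover counting error only. Of reads that were not multimapped, those outside genes made up 29.2% to 30.4% in the IgG libraries, 9.67% to 9.74% in the IMP1 IP, 6.54% to 7.20% in the IMP2 IP and 7.49% to 8.28% in total RNA, and the part of this difference, like that of the Y-linked genes, Xist and the marker sums, in these ratios was not tested.

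Of the genes beside Tbx5 and Tbx4, only the T-box genes Tbx3 and Tbx2 were followed. Tbx3 had log2 ratios of -1.30 in IMP1 KO and -2.44 in IMP2 KO. It was thus at least 2-fold lower in both, as were 4.27% of genes. Tbx2 was at -0.83 and -0.68, within 2-fold in each. Tbx3, which lies next to Tbx5 on chromosome 5 and acts in limb and mammary development, was 21.5 CPM in IMP1 WT, 21.1 in IMP2 WT, 8.92 in IMP1 KO and 3.80 in IMP2 KO. In the IP libraries Tbx3 was at 18.4 to 31.2 CPM, where Tbx5 had 0 counts. Tbx2, next to Tbx4 on chromosome 11, was 8.95 CPM in IMP1 WT, 6.97 in IMP2 WT, 5.16 in IMP1 KO and 4.34 in IMP2 KO, and 0.0528 to 0.422 CPM (1 to 5 counts) in the IP libraries, where Tbx4 had at most 1 count per library. Both neighbours were still counted in IMP1 KO, where Tbx5 and Tbx4 had 0 counts. These neighbours were chosen by position after the values were seen.

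Lhx9, Tbx15, Prrx1, Twist1 and Meis1 passed the filter on low counts in the IP libraries and were tested with edgeR's quasi-likelihood test over 14076 genes, with Benjamini-Hochberg adjustment. Passing the filter needed enough counts in as many libraries as 1 group holds, taken from any group. These 5 thus do not stand for all 10. Levels in the pull-downs are given as TMM-scaled CPM, the scale of the test. In the IMP1 IP against IgG, 1 of the 5 was higher and 4 were lower, where 31.7% of all genes tested were higher and 31.9% lower (63.6% called in all). Against IgG, the IMP2 IP had 1 higher and 3 lower, over 40.3% and 37.3% (77.6% in all). In the IMP1 IP against the IMP2 IP, 4 were lower and none higher, over 37.3% and 34.1% (71.4% in all). With most genes called in each comparison, the number called among 5 is no result about these genes. The share of all genes whose groups do not overlap was not computed, so separate groups below are a description. Both comparisons with IgG use the same IgG libraries.

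Meis1 was 13.2 in each of the 3 IgG libraries, 7.62, 7.26 and 8.04 in the IMP1 IP libraries and 8.70, 9.15 and 10.6 in the IMP2 IP libraries. The 3 groups did not overlap, and the means were 13.2 ± 0.0343, 7.64 ± 0.389 and 9.49 ± 1.01 TMM-scaled CPM (SD, n = 3). Meis1 fell by 0.79 on the log2 scale in the IMP1 IP against IgG (SE 0.103, adjusted p = 7.46e-07) and by 0.47 in the IMP2 IP against IgG (SE 0.0955, adjusted p = 0.000135). It was lower in the IMP1 IP than in the IMP2 IP, at -0.32 on the log2 scale (SE 0.101, adjusted p = 0.0073), a call that ended with DESeq2 (adjusted p = 0.0745) and without IMP2 IP replicate 3 (-0.23, adjusted p = 0.0579).

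Prrx1 had 201, 188 and 185 TMM-scaled CPM in the IgG libraries, 134, 139 and 138 in the IMP1 IP and 153, 172 and 170.1 in the IMP2 IP. On this scale all 3 groups were separate, IgG highest and IMP1 lowest, with means of 191 ± 8.86, 165 ± 10.6 (IMP2) and 137 ± 2.84 (SD, n = 3). On plain CPM, Prrx1 in IgG (183 to 201) overlapped the IMP2 IP (171 to 194). The log2 fold change was -0.48 in the IMP1 IP against IgG (SE 0.0458, adjusted p = 5.22e-09), -0.21 in the IMP2 IP against IgG (SE 0.0446, adjusted p = 0.000189) and -0.27 between the IMP1 and IMP2 IPs (SE 0.0450, adjusted p = 1.18e-05). Scaled by total counts, the IMP2 IP value of Prrx1 was -0.04 (adjusted p = 0.454), and the call ended.

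Tbx15 was 25.9, 27.4 and 27.3 TMM-scaled CPM in IgG, 18.7, 19.3 and 15.3 in the IMP1 IP and 20.3, 24.1 and 24.7 in the IMP2 IP. On this scale the 3 groups again did not overlap, in the same order as for Prrx1. On plain CPM, Tbx15 in IgG (25.9 to 27.1) overlapped the IMP2 IP (22.7 to 27.6). Its log2 fold change was -0.59 in the IMP1 IP against IgG (SE 0.0902, adjusted p = 5.9e-06) and -0.38 in the IMP1 IP against the IMP2 IP (SE 0.0868, adjusted p = 0.000513). In the IMP2 IP against IgG it was -0.21 (SE 0.0843, adjusted p = 0.025), a call that ended without IMP2 IP replicate 1 (-0.11, adjusted p = 0.152), without IgG replicate 2 (-0.19, adjusted p = 0.0798), without IgG replicate 3 (-0.19, adjusted p = 0.0932), with no filter on low counts (-0.12, adjusted p = 0.197) and with total count scaling (-0.04, adjusted p = 0.664).

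Twist1 was the factor that was higher in the pull-downs. It had 26.8, 28.5 and 29.3 TMM-scaled CPM in IgG, 35.6, 31.8 and 32.7 in the IMP1 IP and 46.3, 41.9 and 35.4 in the IMP2 IP. On this scale IgG lay below both pull-downs, and the lowest IMP2 library lay just under the highest IMP1 library. On plain CPM, Twist1 in IgG (26.7 to 29.1) overlapped the IMP1 IP (28.5 to 31.8). Twist1 rose by 0.54 on the log2 scale in the IMP2 IP against IgG (SE 0.0817, adjusted p = 3.46e-06) and differed by -0.29 between the IMP1 and IMP2 IPs (SE 0.0774, adjusted p = 0.00178). In the IMP1 IP against IgG it was 0.24 (SE 0.0856, adjusted p = 0.0167). That call ended under upper quartile scaling (0.07, adjusted p = 0.453), total count scaling (0.09, adjusted p = 0.361), without IgG replicate 1 (0.21, adjusted p = 0.0721) and without IMP1 IP replicate 1 (0.20, adjusted p = 0.0719).

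Lhx9 was near the limit of detection in the pull-downs, with 6 to 22 counts per library. The gene passed the filter mainly through the libraries of IgG (12 to 16 counts) and the IMP2 IP (13 to 22), with fewer counts in the IMP1 IP (6 to 11). Lower values of Lhx9 in the IMP1 IP thus carry this limit. It had 1.01, 1.02 and 1.11 TMM-scaled CPM in IgG, 0.355, 0.568 and 0.680 in the IMP1 IP and 0.739, 0.968 and 0.780 in the IMP2 IP. On this scale the groups did not overlap. On plain CPM, Lhx9 in IgG (1.01 to 1.1) overlapped the IMP2 IP (0.827 to 1.09). Its log2 fold change was -0.97 in the IMP1 IP against IgG (SE 0.323, adjusted p = 0.0122), a call that ended with DESeq2 (adjusted p = 0.0672) and without IMP1 IP replicate 1 (-0.73, adjusted p = 0.0834). It did not pass in the IMP2 IP against IgG (-0.33, SE 0.275, adjusted p = 0.306) or between the IMP1 and IMP2 IPs (-0.64, SE 0.308, adjusted p = 0.0719), where total count scaling (-0.97, adjusted p = 0.00704) and leaving out IMP1 IP replicate 3 (-0.84, adjusted p = 0.0495) gave a call.

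**Figure D3:**
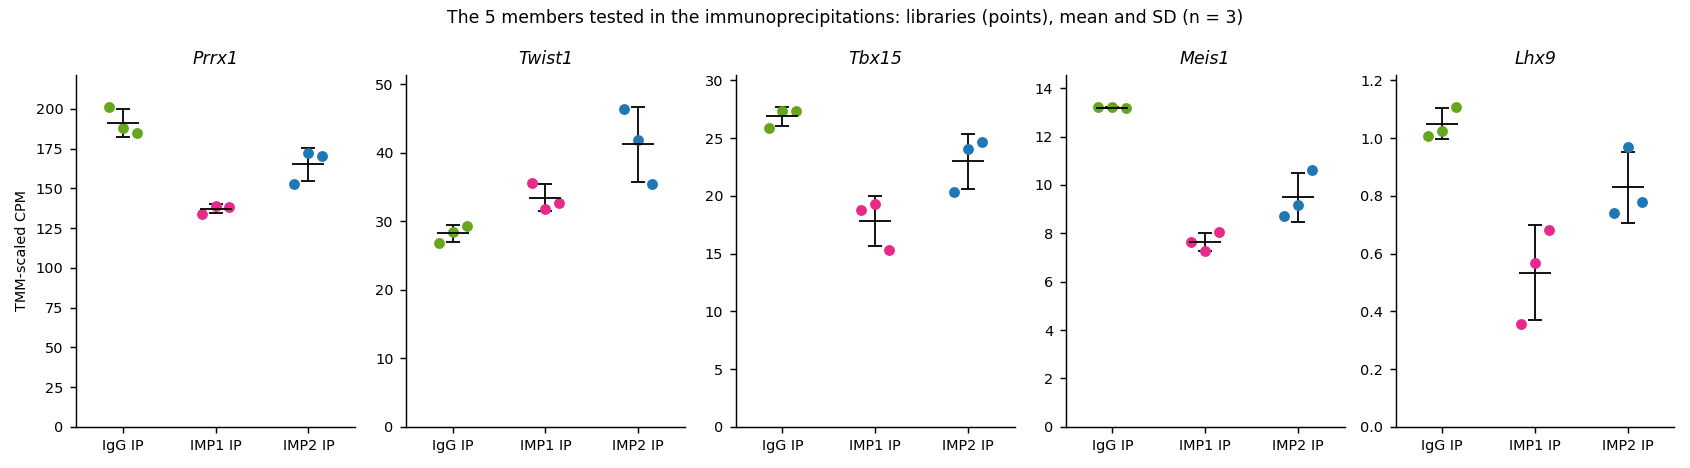
TMM-scaled CPM of the 5 factors tested in the IP libraries, from 0 on each vertical axis. Points are libraries, and bars give the mean and SD of 3 libraries per group. Prrx1, Tbx15, Meis1 and Lhx9 are highest in IgG and lowest in the IMP1 IP, and Twist1 is lowest in IgG (mean 28.2) and highest in the IMP2 IP (mean 41.2).

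The factors act in networks, and 4 lists of related genes were followed, with total RNA ratios first. Over all 14275 genes 12.1% were at least 2-fold lower and 6.80% higher in IMP1 KO (median log2 ratio -0.05), and 9.76% lower and 11.0% higher in IMP2 KO (median 0.00). Of 29 family relatives (other T-box, LIM, paired, TALE and bHLH genes), 18 had at least 1 CPM in 1 total RNA library. In IMP1 KO 9 of them were at least 2-fold lower and 2 higher, with a median log2 ratio of -1.09, and in IMP2 KO 10 were lower and 1 higher, with a median of -1.08. Lmx1b, which sets dorsal limb identity, had 10.5 CPM in IMP1 WT and 0 counts in IMP1 KO, and was 10.4-fold lower in IMP2 KO than in IMP2 WT (6.56 to 17.4). Alx1, a homeobox gene of facial mesenchyme, had 0 counts in IMP1 KO beside 7.45 CPM in IMP1 WT. Shox2, a limb skeleton homeobox gene, was 21.1-fold lower in IMP2 KO (15.7 to 29.1) and Tbx18 17.0-fold lower (12.6 to 23.4). Between the WT libraries 1 relative passed 2-fold, Alx1, which was 8.56-fold higher in IMP1 WT (4.97 to 15.8). Over all genes 1.46% were higher and 1.84% lower there.

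The binding partners and inhibitors of these factors numbered 23 at 1 CPM or more, of which 3 were higher and 2 lower by 2-fold in IMP1 KO (median log2 ratio 0.16). In IMP2 KO 7 were higher and 2 lower (median 0.38). Over all genes 6.80% were higher and 12.1% lower in IMP1 KO, and 11.0% and 9.76% in IMP2 KO. Ldb2, which bridges LIM-homeodomain factors, was 11.0-fold higher in IMP1 KO (8.11 to 15.3) and 3.06-fold higher in IMP2 KO (2.39 to 3.94). Id2 and Id4, which block basic helix-loop-helix factors, were 2.31-fold and 3.24-fold higher in IMP1 KO and 2.97-fold and 2.94-fold higher in IMP2 KO. Against IMP1 WT the log2 ratio of Id2 in IMP2 KO was 0.82, below the 2-fold line. Lmo4 was 2.1-fold lower in IMP1 KO (1.88 to 2.34), and Lmo2 was 17.0-fold higher in IMP2 KO on 49 counts against 3 (5.48 to 85.1).

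Limb signalling genes went in both directions, with 13 lower and 8 higher of 37 in IMP1 KO (median log2 ratio -0.32) and 11 lower and 7 higher in IMP2 KO (median 0.29). The shares over all genes were 12.1% lower and 6.80% higher, and 9.76% and 11.0%. Aldh1a2, which makes retinoic acid, had 0 counts in IMP1 KO beside 3.32 CPM in IMP1 WT, and was 21.6-fold lower in IMP2 KO on 2 counts against 45 (5.66 to 184). Fgf18 was 26.4-fold higher in IMP1 KO (19.1 to 37.6) and Rspo3, a Wnt enhancer, 15.7-fold higher (14.7 to 16.8). Bmp7 had 1 count in IMP1 KO against 47 in IMP1 WT, but only 7 in IMP2 WT. Grem1, a BMP antagonist that Shh signalling sustains in the limb bud, was 741 CPM in IMP2 WT and 24.1 in IMP2 KO. Bmpr1b was 12.0-fold lower in IMP2 KO (7.69 to 19.7). Fgfr3, a receptor of growth plate cartilage, was 32.6-fold higher in IMP2 KO (22.6 to 49.0), the library with the high cartilage marker sum. The part of that sum in this value was not tested.

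Of 53 other positional transcription factors, 48 had at least 1 CPM, and 20 were lower and 11 higher in IMP1 KO (median log2 ratio -0.43), against 9 lower and 18 higher in IMP2 KO (median 0.39), beside the same shares over all genes of 12.1% and 6.80%, and 9.76% and 11.0%. Six2, Zic1 and Sox6 had 0 counts in IMP1 KO beside 13.3, 12.2 and 8.34 CPM in IMP1 WT, and Pax1, a sclerotome factor, had 1 count against 303. In IMP2 KO Nkx3-2, a factor of early cartilage, was 18.7-fold higher (13.2 to 27.4) and Dlx5 20.6-fold higher (9.75 to 52.3). The part of the same cartilage marker sum in these values was not tested. Sox11 and Msx2 were 22.3-fold and 13.8-fold lower in IMP2 KO. Between the WT libraries, 2 limb signalling genes, 2 other positional factors and no partner passed 2-fold, all higher in IMP1 WT. Over all genes 1.46% were higher and 1.84% lower. Of the 2 positional factors, Dlx6 had 3 counts against 0, at the floor, so no fold is given for it.

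**Figure D4:**
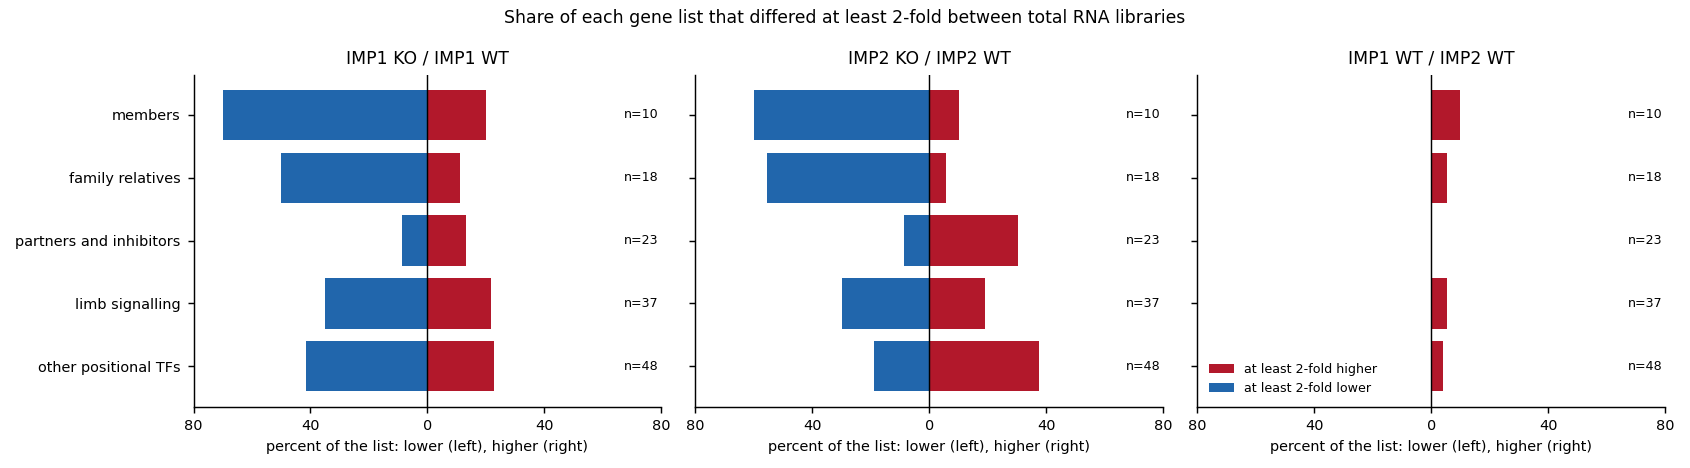
Percent of each gene list at least 2-fold lower (left of 0, blue) or higher (right of 0, red) between total RNA libraries, with the number of genes at 1 CPM or more (n) at the right. Of the family relatives 9 of 18 were lower in IMP1 KO and 10 of 18 in IMP2 KO, while the other positional factors had 20 lower in IMP1 KO and 9 in IMP2 KO. Bars describe single libraries and carry no error.

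In the pull-downs the same lists were read from the edgeR fit, in which most genes passed. Over all 14076 genes 31.9% were lower and 31.7% higher in the IMP1 IP against IgG, 37.3% and 40.3% in the IMP2 IP against IgG, and 37.3% and 34.1% in the IMP1 IP against the IMP2 IP. Of 14 family relatives tested in the IMP1 IP against IgG, 7 were lower and none higher, with Tbx20 at a log2 value of -0.87 (SE 0.0579, adjusted p = 1.44e-11) and Meis2, the closest relative of Meis1, at -0.85 (SE 0.0563, adjusted p = 1.4e-11). In the IMP2 IP against IgG 6 were higher and 3 lower. Prrx2, the paralog of Prrx1, rose by 0.67 there (SE 0.0868, adjusted p = 3.61e-07) and Scx, a tendon factor, by 0.74 (SE 0.0934, adjusted p = 2.82e-07), while Meis2 fell by 0.66 (SE 0.0538, adjusted p = 2.84e-10). In the IMP1 IP against the IMP2 IP 10 were lower and 1 higher, with Prrx2 at -1.08 (SE 0.0876, adjusted p = 1.9e-10).

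Of 22 partners and inhibitors tested, 7 were lower and 3 higher in the IMP1 IP against IgG, and 6 lower and 8 higher in the IMP2 IP against IgG. These counts are near the shares over all genes (31.9% and 31.7%, and 37.3% and 40.3%) or below them and are no result about the list. Pbx2, a PBX cofactor of MEIS proteins, fell by 0.69 in the IMP1 IP (adjusted p = 2.26e-07). Pbx4 fell by 1.08 (adjusted p = 0.00701), a call that ended without IgG replicate 1 (adjusted p = 0.0985) and without IMP1 IP replicate 1 (adjusted p = 0.0525). Id3 and Id2 rose by 0.95 (adjusted p = 1.33e-11) and 0.75 (adjusted p = 2.73e-08) in the IMP2 IP. Against the IMP2 IP, Id3 fell by 1.35 in the IMP1 IP (adjusted p = 2.11e-14), where Gli3 rose by 0.94 (adjusted p = 1.22e-14), and 14 of the 22 were lower and 5 higher, beside 37.3% and 34.1% of all genes.

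Limb signalling genes were split, 10 lower and 8 higher of 34 in the IMP1 IP, 8 and 9 in the IMP2 IP, each against IgG, and 10 and 10 between the IMP1 and IMP2 IPs, near or below the same shares over all genes. Grem1 fell in both, by 1.11 (adjusted p = 5.94e-16) and 0.58 (adjusted p = 7.79e-12). Ptch1, the Hedgehog receptor, rose by 0.75 in the IMP1 IP against IgG (adjusted p = 4.97e-12) and by 1.04 against the IMP2 IP (adjusted p = 3.45e-15). Of 44 other positional factors, 26 were lower and 2 higher in the IMP1 IP against IgG (median log2 fold change -0.36, beside 31.9% lower, 31.7% higher and a median of -0.03 over all genes), and 21 were lower and 8 higher in the IMP2 IP against IgG (median -0.17, beside 37.3%, 40.3% and 0.04). The large zinc finger homeobox genes Zfhx4 and Zfhx3 fell by 1.41 (adjusted p = 3.3e-17) and 1.35 (adjusted p = 8.2e-19) in the IMP2 IP, and Zfhx3 was 1.28 higher on the log2 scale in the IMP1 IP than in the IMP2 IP (adjusted p = 3.63e-19). The higher and lower counts of these lists moved with the scaling: with total counts, partners lower in the IMP1 IP against IgG were 15 in place of 7, and other positional factors higher in the IMP2 IP were 17 in place of 8.

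Across the 13 libraries, the genes most like Pitx1 and Tbx4 were other limb bud factors of the list, which held for no other factor. Among 11840 protein-coding genes, Pitx1 had its highest Pearson r with Tbx5 (0.991) and Tbx4 (0.990), Tbx4 with Tbx5 (0.992) and Pitx1, and Tbx5 with Lmx1b (0.995) and Rpl39l (0.992). Sim2 was most alike to Cacna2d3 (0.989) and Meox2 (0.987), Tbx15 to Zic1 (0.981) and Cdh18 (0.978), and Lhx9 to Gda (0.966) and Tuba8 (0.961). Twist1 was nearest to Mxra8 (0.985) and Ptgr2 (0.978), Prrx1 to Jam2 (0.972) and Ptprb (0.961), and Meis1 to Lrrc75a (0.970) and Cd200 (0.953). Hand2 reached 1 CPM in 2 libraries only and was not ranked. The 9 IP libraries sit near 0 for several of these genes, so that few total RNA libraries set r, and it is given as a description on the log2 scale of TMM-scaled CPM.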

How the data were processed

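The authors deposited 1 file of raw read counts per library (whole numbers per Ensembl gene). STAR, HTSeq and the mouse build mm10 are named per the submitters' processing notes, and their versions, settings and the strand setting are not given in the sources used here. Per the labels' protocols the library kit was Illumina TruSeq. The 5 tally lines (such as reads in no gene) stayed out of totals and tests, and symbols were matched for 42462 of 43629 genes.

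The 9 IP libraries (IgG, IMP1 and IMP2, 3 each) entered 1 fit with edgeR 4.0.16 in R 4.3.3: genes filtered with filterByExpr, counts scaled by TMM, quasi-likelihood test, 2-sided, Benjamini-Hochberg adjustment over 14076 genes and a threshold of 0.05. The fit was tested on simulated data. Total RNA libraries, 1 per genotype, were compared with no test, as the log2 ratio of TMM-scaled CPM (prior count 2) and as a ratio of CPM with an exact 95% interval. Fold bounds against 0 counts use 3 counts. Intervals and floors cover counting error only, since reads carried no molecular identifiers. Gene counts of 11430002 to 21756430 per library set the precision.

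The 10 factors, the lists of related genes and the tests were chosen with earlier results of these data known. All 10 are named; of each related list, at most 4 genes per comparison with the largest change, and for each factor the 2 protein-coding genes with the highest Pearson r, among those with a mean of at least 1 CPM. Some genes that the rule for related lists would name are not reported here. Alternatives were DESeq2 1.42.0, other scalings, filters and prior counts, the replicate number as a block, 2 groups alone and each IP library left out; the other WT library as control was added after seeing the data. Promoters and positions come from RefSeq tables.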

Additional observations from a re-analysis of the deposited data

Results flagged for a closer look

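Sim2, Tbx15, Prrx1 and Twist1 had ratios of opposite sign in the knockouts, each against its own WT library, with 1 library per genotype. The difference was not tested, because no genotype has a replicate. For Sim2 the log2 ratio in IMP1 KO minus that in IMP2 KO was -10.82, a value that depends on the prior count because Sim2 had 0 counts in IMP1 KO. For Tbx15 it was -5.47, for Prrx1 2.98 and for Twist1 -1.76. Twist1 was within 2-fold of its WT library in each knockout. At 2-fold in each, opposite directions were found for Sim2 and Prrx1, and for 3.72% of 14275 genes.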

How the results depend on the processing

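No pull-down fold change of the 5 tested factors changed sign under the alternatives run, nor did any total RNA ratio of at least 2-fold. Smaller total RNA ratios were not checked for sign. The IMP1 IP against IgG had 1 factor higher (Twist1), and 0 under upper quartile scaling and under total count scaling. Leaving out each library in turn gave 0 to 1 (0 without IgG replicate 1 or IMP1 IP replicate 1). The IMP2 IP against IgG had 3 factors lower, and 1 under total count scaling. Against the other WT library, an alternative chosen after seeing the data, factors at least 2-fold higher were 1 in place of 2 in IMP1 KO (Prrx1 at 0.91) and 3 in place of 1 in IMP2 KO (Tbx15 at 1.11 and Twist1 at 1.05 joined Sim2). Of the fold changes of the 5 tested factors under alternatives, 79 of 85 kept their side of the threshold in the IMP1 IP against IgG, 79 of 85 in the IMP2 IP against IgG and 81 of 85 between the IPs. The cause of these changes was not tested beyond the shift of scale: against TMM, the median log2 fold change of all genes moved by -0.17 (upper quartile) and -0.153 (total counts) in the IMP1 IP against IgG, by -0.179 and 0.173 in the IMP2 IP against IgG and by -0.325 (total counts) between the IPs. The share of calls that were higher went from 49.8% to 31.6% and 33.3%, from 51.9% to 39.9% and 62.2%, and from 47.7% to 27.8%. A change of scaling moves all genes by nearly the same amount. The factors thus kept their values relative to these shifts by construction, which does not show which scaling is right.

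Genes at 0 counts have log2 ratios set by the prior count, such as Sim2 in IMP1 KO at -7.63, or -9.62 with a prior count of 0.5. With the replicate number as a block, 9017 genes in place of 8948 passed in the IMP1 IP against IgG, 10961 in place of 10927 in the IMP2 IP against IgG and 10067 in place of 10053 between the IPs, and the factors called were unchanged in number at 1 higher and 4 lower, 1 and 3, and 0 and 4. Same-numbered libraries correlated in their deviations at -0.197 to 0.351, with 2 of 9 pairs over 0.1, and the numbers were not treated as a pairing. Both pairs were between the IMP1 and IMP2 IPs, at 0.351 (replicate 1) and 0.310 (replicate 3), beside 0.00858 for replicate 2. Replicate 1 of one with replicate 3 of the other gave -0.357 and -0.318. What these libraries share was not tested. Pitx1, Sim2, Tbx4, Tbx5 and Hand2 had too few IP counts to test, in libraries of 11840189 to 21756430 gene counts, beside 88 to 813 counts in the WT libraries of 14756745 and 17225308.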

Other observations

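Between the knockouts, related genes differed further, with 1 library each and no test. Grem1 was 1539 CPM in IMP1 KO and 24.1 in IMP2 KO, 63.9-fold higher (counting interval 57.9 to 70.8). Alx4 and Twist2, a paralog of Twist1, were 29.2-fold (19.2 to 46.5) and 13.3-fold (9.68 to 18.8) higher in IMP1 KO. In the other direction, Pax9 and Nkx3-2, both factors of the sclerotome, had 2 counts each in IMP1 KO and 700 and 594 counts in IMP2 KO, and Sox6, a chondrocyte factor, had 0 and 467. Of 48 other positional factors 24 were at least 2-fold lower in IMP1 KO than in IMP2 KO and 6 higher. Over all genes the shares were 15.1% and 9.64%. IMP2 KO held 11473 CPM of cartilage markers, whose part in this was not tested.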
